A study of Mus musculus with 6 samples.

Results

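A set of 8 genes of the primary (azurophil) granules of neutrophils was followed through LL2 tumor growth in mouse bone marrow: Mpo, Elane, Prtn3, Ctsg, Ms4a3, Prss57, Serpinb1a and Cd63. The 8 genes were taken by name from the 38887 gene identifiers of the count table, at a time when earlier results of these data were known, and all 8 passed the count filter that left 12259 genes for testing. RNA came from Ly6G+ cells that were selected with beads from bone marrow of naive mice and of tumor-bearing (TB) mice 1 week and 3 weeks after LL2 cells were given. LL2 is a mouse Lewis lung carcinoma line, here carrying luciferase, and per the study's methods it was injected intravenously so that tumors grew in the lungs. Each of the 3 groups had 2 libraries, labelled as replicate mice, and p-values measure the spread between these libraries only. The labels give neither strain nor age. The study's general methods name C57BL/6 mice bought at 6 to 8 weeks of age, without tying them to these samples. No injection is stated for the naive mice, so the tumor and the injection itself cannot be told apart.

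Primary granules are the earliest granules that a neutrophil makes. Their proteins are produced at the promyelocyte stage and stored, and transcription of their genes is largely shut off as the cell goes on to make secondary and tertiary granules, so mature neutrophils carry much of the protein and little of the mRNA. Myeloperoxidase (Mpo) makes hypochlorous acid from hydrogen peroxide. Neutrophil elastase (Elane), proteinase 3 (Prtn3) and cathepsin G (Ctsg) are serine proteases that degrade microbial and matrix proteins. Neutrophil serine protease 4 (Prss57) is a further serine protease. Serpinb1a is a cytosolic inhibitor of elastase, proteinase 3 and cathepsin G. Ms4a3 is a membrane protein of granulocyte and monocyte progenitors. Cd63 is a tetraspanin of the granule membrane that is also found in lysosomes and late endosomes of most cells.

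The libraries held between 11994158 and 14127919 counts, so that the limit set by 3 counts lay between 0.2 and 0.245 CPM, where CPM is the count of a gene as edgeR scales it to a common library size with TMM factors. The neutrophil markers S100a8 and S100a9 were among the most abundant transcripts and Csf3r stood between 630 and 1034 CPM. Ly6g, the marker used for the selection, had only 6 to 32 counts in a library, so the label could not be checked on it. Of 12259 genes tested, 21.4% were called at week 3 against naive, 22.5% at week 3 against week 1 and 7.99% at week 1 against naive, in edgeR's quasi-likelihood test with Benjamini-Hochberg adjustment. Scaling by library size alone moved the median log2 fold change of all genes from 0.03 to -0.11 at week 3 against naive and from -0.02 to -0.22 at week 3 against week 1. The split of calls moved with it, from 1472 higher and 1155 lower to 890 and 1672, and from 1588 and 1172 to 859 and 2133. At week 1 against naive it went from 518 higher and 461 lower to 574 and 263.

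Of the 8 genes, 7 were higher in week 3 TB mice than in naive mice, against 12.0% of all tested genes that were called higher, and none was lower, against 9.42%. The peroxidase and the elastase, proteinase 3 and cathepsin G genes rose most, by between 4.92-fold and 9.37-fold, while Ms4a3, Prss57 and Serpinb1a rose by 2.54-fold, 1.59-fold and 1.44-fold, and Cd63 did not pass the test. Both week 3 libraries lay above both naive libraries in the same 7 genes, which was so for 32.1% of all tested genes (27.5% had both below both). The median log2 fold change was 1.82 over the 8 genes and 0.03 over all tested genes. In these bulk libraries a larger share of cells that carry the transcripts and more transcript per cell cannot be told apart. In the same comparison edgeR called all 12 tested B-lineage markers lower, and DESeq2 on all libraries called 8 of the 10 it tested. The summed level of the 12 went from 74.5 and 94.8 CPM in naive mice to 25.0 and 16.4 CPM at week 3. Their part in the rise was not tested. The plot of CPM in each library shows the 8 genes side by side.

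**Figure D1:**
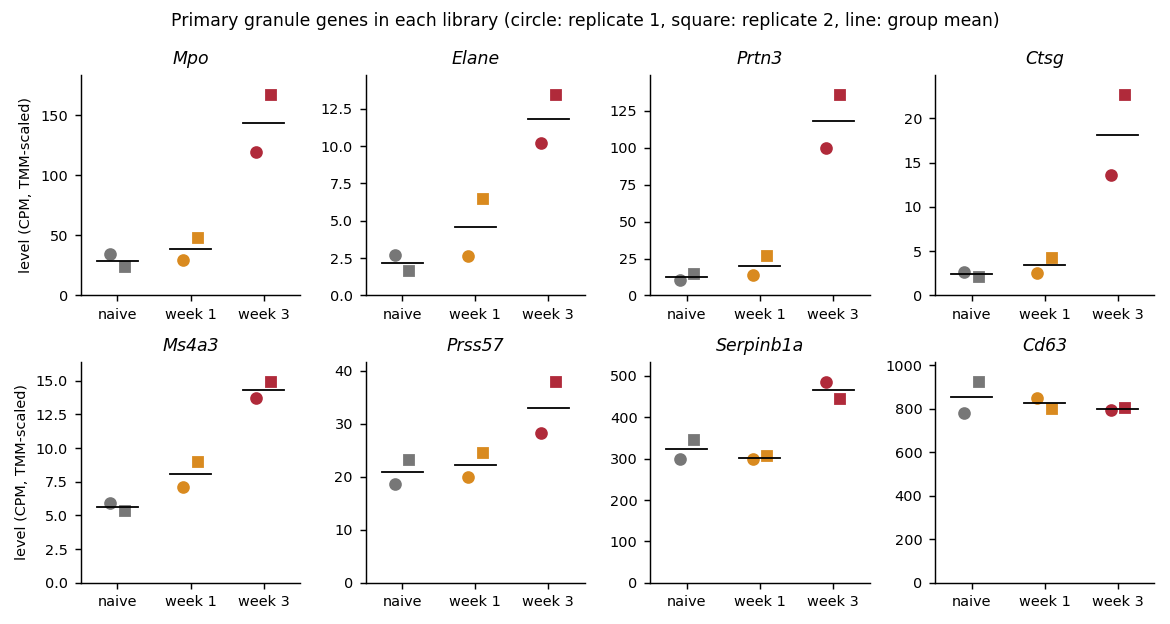
Level of each primary granule gene (CPM, TMM-scaled, linear axes from 0) in the 6 libraries; circles are replicate 1, squares replicate 2 and lines the mean of the 2 libraries of a group. The week 3 libraries stand above the rest for every gene except Cd63, and for Mpo they are at 119 and 167 against 34.9 and 23.3 in naive mice.

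Mpo (ENSMUSG00000009350, chr11:87793581-87804413, plus strand, GRCm38) was at 34.9 and 23.3 CPM in the naive libraries, 29.1 and 47.8 CPM at week 1 and 119 and 167 CPM at week 3. The naive and week 1 libraries overlapped, and both week 3 libraries lay far above them. Its mean level went from 29.1 ± 8.17 CPM (SD, n = 2) in naive mice to 143 ± 33.9 CPM (SD, n = 2) at week 3, a log2 fold change of 2.30 (SE 0.239, adjusted p = 2.75e-05). Against week 1 the log2 fold change was 1.90 (SE 0.233, adjusted p = 9.05e-05). An antisense gene inside the Mpo gene, Gm11505, had no count in any library. The gene's closest relatives, eosinophil peroxidase (Epx) and lactoperoxidase (Lpo), lie within 100 kb of it. They had at most 8 counts and no count, so no change of theirs was detectable at this depth.

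Prtn3 showed the largest rise of the 8 genes. Prtn3 (ENSMUSG00000057729, chr10:79874476-79883174, plus strand) was at 10.4 and 14.8 CPM in naive mice, 13.9 and 26.4 CPM at week 1 and 99.7 and 136 CPM at week 3. Naive and week 1 libraries overlapped and the week 3 libraries were separate from both. The log2 fold change was 3.23 at week 3 against naive (SE 0.265, adjusted p = 3.55e-06), which placed it 69 from the top among the 12259 tested genes. Against week 1 it was 2.55 (SE 0.251, adjusted p = 1.69e-05).

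Ctsg (ENSMUSG00000040314, chr14:56099881-56102574, minus strand) was at 2.69 and 2.13 CPM in naive mice, 2.53 and 4.25 CPM at week 1 and 13.6 and 22.7 CPM at week 3. The week 3 libraries lay above all others although they differed from each other. The log2 fold change at week 3 was 2.91 against naive (SE 0.313, adjusted p = 3.6e-05) and 2.42 against week 1 (SE 0.295, adjusted p = 8.38e-05). Elane (ENSMUSG00000020125, chr10:79886247-79888215, plus strand) had only 34 and 20 counts in naive mice, or 2.69 and 1.64 CPM. It was at 2.67 and 6.48 CPM at week 1 and at 10.2 and 13.4 CPM at week 3. Here too the naive and week 1 libraries overlapped and the week 3 libraries did not overlap with either group. The rise was 2.44 on the log2 scale against naive (SE 0.38, adjusted p = 0.000558) and 1.38 against week 1 (SE 0.344, adjusted p = 0.0112). Without replicate 1 of week 1 or without replicate 2 of week 3 the latter was 0.84 (adjusted p = 0.0989) and 1.18 (adjusted p = 0.0619).

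Since Mpo, Elane, Prtn3 and Ctsg moved together and most steeply, the 250 bases before their RefSeq transcription starts are shown here (RefSeq, GRCm38.p6), each written 5′ to 3′ on the gene's own strand. Capitals mark matches on either strand to 5 motifs that were searched: GAGGAAG for PU.1, a factor of the ETS family, CAACNG for MYB, TTGCNNAA for C/EBP factors, TGTGGT for RUNX factors and AATCAC for GFI1. The Mpo window lies at chr11:87793534-87793783, the Elane window at chr10:79886062-79886311 and the Prtn3 window at chr10:79879417-79879666, all on the plus strand, and the Ctsg window at chr14:56102575-56102824 on the minus strand.
Mpo: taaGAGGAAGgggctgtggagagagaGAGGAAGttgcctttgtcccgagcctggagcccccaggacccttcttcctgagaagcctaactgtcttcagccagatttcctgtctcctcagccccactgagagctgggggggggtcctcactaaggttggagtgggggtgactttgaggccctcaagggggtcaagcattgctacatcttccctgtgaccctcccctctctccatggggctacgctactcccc
Elane: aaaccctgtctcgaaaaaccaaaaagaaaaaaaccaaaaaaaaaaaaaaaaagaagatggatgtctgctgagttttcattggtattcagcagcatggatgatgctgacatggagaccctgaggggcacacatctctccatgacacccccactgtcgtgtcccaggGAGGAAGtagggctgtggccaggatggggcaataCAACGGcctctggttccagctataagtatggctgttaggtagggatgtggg
Prtn3: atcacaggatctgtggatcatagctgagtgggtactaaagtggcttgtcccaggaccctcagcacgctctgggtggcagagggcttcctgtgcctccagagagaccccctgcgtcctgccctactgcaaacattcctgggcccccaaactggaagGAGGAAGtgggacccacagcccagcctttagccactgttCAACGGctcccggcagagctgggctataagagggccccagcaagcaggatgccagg
Ctsg: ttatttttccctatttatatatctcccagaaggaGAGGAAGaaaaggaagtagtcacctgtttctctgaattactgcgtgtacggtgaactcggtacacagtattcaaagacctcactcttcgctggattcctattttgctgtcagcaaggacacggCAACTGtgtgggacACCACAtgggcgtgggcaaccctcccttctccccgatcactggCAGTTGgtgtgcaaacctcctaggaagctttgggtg
The GENCODE models of Mpo, Elane and Prtn3 begin further upstream than the RefSeq starts, so that 203, 65 and 250 bases of these 3 windows fall inside the annotated gene.

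The PU.1 letters were found in 5 of the 6 primary granule genes that had a window (Prss57 and Serpinb1a had none), against 10.6% of all 32817 windows. They stood at 2 places in Mpo, between 247 and 241 and between 224 and 218 bases before the start, and once each in Elane, Prtn3, Ctsg and Cd63. In Elane and Prtn3 the arrangement was alike, with the PU.1 letters 85 to 79 and 95 to 89 bases before the start and the MYB letters, CAACGG in both, 51 to 46 and 56 to 51 bases before it. The MYB letters were found in 3 of 6 windows, with 2 matches in Ctsg, against 29.3% of all windows. Those for RUNX were in 1 of 6 against 14.0%, and those for C/EBP and GFI1 in none against 9.57% and 9.13%. The matches are a description of the letters. Cd63, which did not pass the test in any comparison, also held a PU.1 match, and Ms4a3, which rose, held no match to any of the 5 motifs.

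Ms4a3 and Prss57 rose less. Ms4a3 (ENSMUSG00000024681, chr19:11629496-11640851, minus strand) was at 5.93 and 5.32 CPM in naive mice, 7.13 and 8.94 CPM at week 1 and 13.7 and 14.9 CPM at week 3. Its 3 groups stood one above the other with no overlap, which was so of no other gene of the 8. The log2 fold change was 1.35 at week 3 against naive (SE 0.201, adjusted p = 0.00041) and 0.83 against week 1 (SE 0.192, adjusted p = 0.00727). The step from week 1 to week 3 was not called without replicate 1 of week 1 (0.65, adjusted p = 0.0855).

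Prss57 (ENSMUSG00000020323, chr10:79781474-79790961, minus strand) was at 18.6 and 23.1 CPM in naive mice, 19.9 and 24.4 CPM at week 1 and 28.2 and 37.9 CPM at week 3. The week 3 libraries were the highest, though their gap to the others was small beside the spread at week 3. The log2 fold change was 0.67 against naive (SE 0.179, adjusted p = 0.0178) and 0.58 against week 1 (SE 0.177, adjusted p = 0.0323). This call was the least firm of the 7: at week 3 against naive it was lost with scaling by library size alone (0.52, adjusted p = 0.0556), without replicate 1 of the naive group (0.49, adjusted p = 0.184) and without replicate 2 of week 3 (0.44, adjusted p = 0.158). At week 3 against week 1 it was lost under 4 of 14 alternatives, with an adjusted p of up to 0.249. The gene also overlaps Fstl3 on the opposite strand, which encodes a follistatin-like binder of activins and rose by 1.09 at week 3 against naive (adjusted p = 0.00125). Whether counting used the strand is not stated, so reads of Prss57 and Fstl3 cannot be told apart where the genes overlap.

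The inhibitor rose as well, from a much higher level. Serpinb1a (ENSMUSG00000044734, chr13:32842092-32851185, minus strand) was at 300.4 and 346 CPM in naive mice, 299 and 306 CPM at week 1 and 486 and 445 CPM at week 3. Naive and week 1 libraries lay side by side and both week 3 libraries lay above them. The log2 fold change was 0.53 against naive (SE 0.115, adjusted p = 0.00578) and 0.62 against week 1 (SE 0.115, adjusted p = 0.00187). Without replicate 1 of the naive group the former was 0.40 (adjusted p = 0.0802). Its paralogs Serpinb1b and Serpinb1c had no count in any library.

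Cd63 (ENSMUSG00000025351, chr10:128900989-128912822, plus strand) was the only one of the 8 genes that did not pass the test at week 3. It was at 781 and 923 CPM in naive mice, 849 and 798 CPM at week 1 and 796 and 801 CPM at week 3. The week 3 libraries fell between the naive libraries. The log2 fold change at week 3 against naive was -0.09 (SE 0.116, adjusted p = 0.624), with a 95% interval from -0.34 to 0.16. This interval does not reach the rise of Serpinb1a, the smallest among the 7 genes called, although the difference between the genes was not tested.

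**Figure D2:**
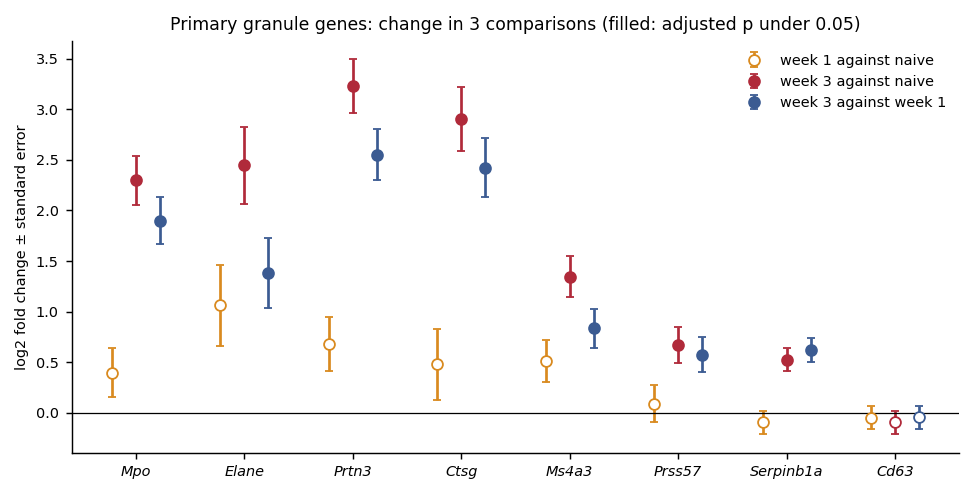
Log2 fold change ± standard error of the 8 primary granule genes in the 3 comparisons (edgeR, 2 libraries per group); filled points have an adjusted p under 0.05. Week 1 against naive has no filled point, and the week 3 comparisons are filled for every gene except Cd63, with Prtn3 at 3.23 and 2.55.

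At week 1 none of the 8 genes was called against naive, where 4.23% of all tested genes were called higher and 3.76% lower. DESeq2 on all libraries also called 0 of 8. The median log2 fold change was 0.44 over the 8 genes and 0.01 over all, and over the 8 genes it was 0.03 without replicate 2 of week 1, 0.29 without replicate 2 of the naive group and 0.69 without replicate 1 of week 1. Elane had the largest value, 1.06 (95% interval 0.20 to 1.93, adjusted p = 0.125), followed by Prtn3 at 0.68 (0.10 to 1.26, adjusted p = 0.142), Ms4a3 at 0.51 (0.07 to 0.96, adjusted p = 0.151), Ctsg at 0.48 (-0.28 to 1.24, adjusted p = 0.455) and Mpo at 0.40 (-0.12 to 0.91, adjusted p = 0.348). Prss57, Serpinb1a and Cd63 stood at 0.09, -0.09 and -0.05. Ms4a3 alone had both week 1 libraries above both naive libraries, which was so for 27.2% of all tested genes.

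The 2 week 1 libraries were not alike in these genes. Replicate 2 stood above replicate 1 in Mpo, Elane, Prtn3, Ctsg, Ms4a3 and Prss57, by the most in Elane. Summed over these 6 genes the level was 75.1 and 70.2 CPM in naive mice, 75.3 and 118 CPM at week 1 and 284 and 392 CPM at week 3. Replicate 1 of week 1 thus lay at the naive level and replicate 2 lay between the naive and the week 3 libraries. As a share of all counts the 6 genes took 0.00792% (95% Wilson interval 0.00743 to 0.00844) and 0.00695% (0.0065 to 0.00743) in naive mice, 0.00807% (0.00762 to 0.00856) and 0.0124% (0.0118 to 0.0131) at week 1, and 0.026% (0.0252 to 0.0268) and 0.0365% (0.0355 to 0.0375) at week 3. These intervals cover counting error only. With replicate 1 of week 1 left out, Elane (1.57, adjusted p = 0.0304) and Prtn3 (1.07, adjusted p = 0.0319) were called higher at week 1, on a single week 1 library whose spread was taken from the other groups. With replicate 2 of week 1 left out instead, the log2 fold changes at week 1 were 0.30 for Elane (adjusted p = 0.763), 0.15 for Prtn3 (adjusted p = 0.819), 0.07 for Ctsg (adjusted p = 0.957), 0.34 for Ms4a3 (adjusted p = 0.536) and -0.0004 for Mpo.

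Between week 1 and week 3 the same 7 genes were higher, against 13% of all tested genes called higher and 9.56% called lower, and the median log2 fold change was 1.11 against -0.02 over all genes. Without replicate 1 of week 1, 4 genes were called, since Elane, Ms4a3 and Prss57 (0.41, adjusted p = 0.248) fell short. Mpo, Prtn3, Ctsg and Serpinb1a were called under all 14 alternatives tried. The comparisons of week 3 with naive and with week 1 share the week 3 libraries, and those of week 1 and week 3 with naive share the naive libraries, so they are not independent of each other.

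Per kb of exonic length, the order of the levels differed between the groups. In naive mice Cd63 led with 231 CPM per kb, ahead of Serpinb1a with 140 and, far below, Mpo with 8.49, Prss57 with 7.32, Prtn3 with 7.26, Ms4a3 with 2.98, Ctsg with 2.33 and Elane with 2.2. In this order Mpo and Prss57, Prss57 and Prtn3, and Ctsg and Elane overlapped between libraries. At week 3 the order was Cd63 with 217 CPM per kb, Serpinb1a with 202, Prtn3 with 68, Mpo with 41.8, Ctsg with 17.5, Elane with 12, Prss57 with 11.6 and Ms4a3 with 7.6, and only Ctsg and Elane, and Elane and Prss57, overlapped as neighbours. Prss57 and Ms4a3, which had stood above Ctsg and Elane in naive mice, were thus the lowest at week 3. At week 1 the order was Cd63 (224 CPM per kb), Serpinb1a (131), Prtn3 (11.7), Mpo (11.2), Prss57 (7.8), Elane (4.65), Ms4a3 (4.27) and Ctsg (3.28), and the overlapping neighbours were Prtn3 and Mpo, Mpo and Prss57, Elane and Ms4a3, and Ms4a3 and Ctsg.

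**Figure D3:**
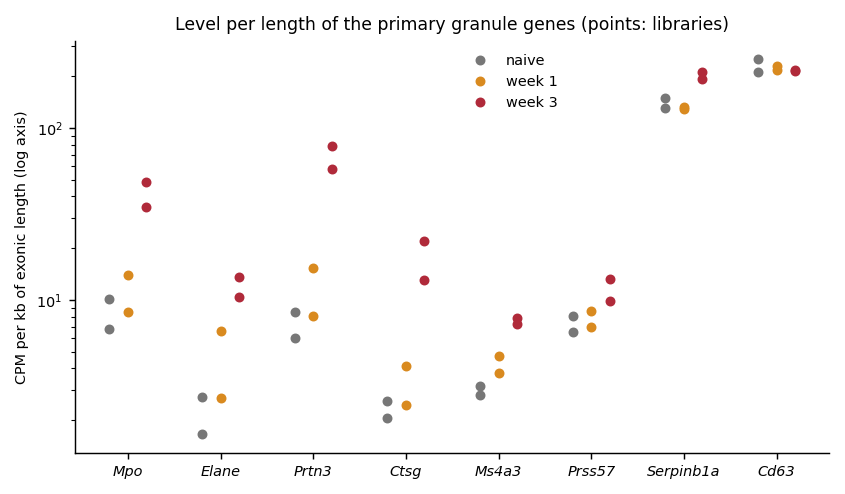
Level of the 8 genes in CPM per kb of exonic length (log axis), one point per library, coloured by group. The week 3 points of Prtn3, Mpo, Ctsg and Elane stand well above their naive and week 1 points, whereas the 3 groups of Cd63 lie together near 200 CPM per kb.

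Over the 6 libraries the log2 CPM of the rising genes went together, with Pearson's r of 0.995 between Mpo and Ctsg, the highest of the 21 pairs among the 7 genes, and 0.728 between Elane and Serpinb1a, the lowest. Cd63 had r between -0.65 and -0.18 with the other 7. These values describe 6 libraries in 3 groups and carry the group difference itself. The 10 genes outside the list whose profile was most like the mean of Mpo, Elane, Prtn3, Ctsg, Ms4a3 and Prss57, among 4742 genes that spanned at least 1 on the log2 scale, were Cst7, Ctsa, Ern1, Platr17, H2afy, Scd2, Map3k8, Fstl3, Hdac4 and Acadl, with r from 0.977 to 0.989. Cst7 encodes cystatin F, an inhibitor of cysteine cathepsins, and Ctsa encodes the lysosomal protective protein cathepsin A. Fstl3 is the gene that overlaps Prss57.

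Elane, Prtn3 and Prss57 lie in 1 cluster on chromosome 10. Of the 11 tested genes within 100 kb of Elane, 4 were higher at week 3 against naive and none was lower. Over all tested genes the shares were 12.0% higher and 9.42% lower. Among the 4, Prtn3 and Prss57 belong to the primary granule set itself, and their rise is the one given above. The others were Ptbp1 (0.54, adjusted p = 0.0158), which encodes a splicing regulator, and Plppr3 (2.20, adjusted p = 0.00741). Plppr3 had only 5, 14, 11, 13, 47 and 45 counts in the 6 libraries in the order given above, and it overlaps the start of the Prtn3 gene on the opposite strand, where reads of both cannot be told apart. The complement gene Cfd, which sits just beyond Elane, had at most 1 count in a library. None of the 4 tested neighbours of Mpo, 2 of Ms4a3, 1 of Serpinb1a and 7 of Cd63 was called at week 3 against naive. The 1 tested neighbour of Ctsg, the basophil protease gene Mcpt8, was higher at week 1 (1.50, adjusted p = 0.0135) and lower at week 3 (-1.26, adjusted p = 0.032), whereas Ctsg rose at week 3.

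Genes that act on the products of the rising genes were described from lists chosen by function. Their counts at week 3 against naive stand beside 12.0% higher and 9.42% lower over all tested genes. Of 13 tested genes for the maturation of granule proteins, 5 rose and none fell at week 3 against naive, with a median log2 fold change of 0.06. Ctsc, the dipeptidyl peptidase I that activates the granule serine proteases, went from 25.3 and 31.6 CPM in naive mice to 31.5 and 34.5 CPM at week 1 and 82.9 and 61.4 CPM at week 3 (1.34, adjusted p = 1e-04). Ctsl, a lysosomal cysteine protease, rose by 1.54 (adjusted p = 5.76e-06) and Alas1, which starts the synthesis of heme, the cofactor of Mpo, by 1.39 (adjusted p = 6.65e-05). Srgn, the serglycin core protein that holds proteases in the granule, rose by 0.57 (adjusted p = 0.00225). The other 8 genes, among them chaperones of the endoplasmic reticulum, were not called. With library-size scaling 5 were called higher as well, while the median was -0.09. At week 1 Pdia3, a disulfide isomerase, was the only gene of this list that edgeR called, and it was lower (-0.94, adjusted p = 0.00336). The number depended on the test, since DESeq2 on all libraries called 4 of the 13 lower there and none higher.

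Other content of primary granules and lysosomes was mixed. This list shares Ctsc and Srgn, given above, with the maturation list, and both are among its genes that rose. Of 21 tested genes 6 rose and 3 fell at week 3 against naive, with a median of 0.26, but 2 rose with library-size scaling or without replicate 1 of the naive group, 3 in DESeq2 on the 2 groups alone, and 1 fell without replicate 2 of the naive group or without replicate 1 of week 3. Lyz2, the myeloid lysozyme, went from 7861 and 10014 CPM in naive mice up to 13694 and 14000.3 CPM at week 1 (0.63, adjusted p = 0.02) and down to 3202 and 4187 CPM at week 3 (-1.27, adjusted p = 6.65e-05). Its course at week 3 was thus opposite to that of the proteases. Lyz1, its near copy, also fell (-1.45, adjusted p = 0.0112), and reads shared by the 2 lysozyme genes make the split between them uncertain. Genes for sorting and release of granules were called about as often as all tested genes, since of 19 tested 2 rose (Ap3s1 by 0.95 and Ap3b1 by 0.43, both subunits of the AP-3 adaptor) and 2 fell (Nbeal2 and Sytl1, by 0.48 and 0.90 on the log2 scale). With library-size scaling 4 of these fell, and none fell without replicate 1 of the naive group or replicate 2 of week 3. Of 4 tested protease inhibitors Serpinb1a rose and Serpina3g fell by 1.60 (adjusted p = 0.0135), while Slpi, the secretory leukocyte protease inhibitor, was not called (0.11, adjusted p = 0.666).

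Most called genes on a list of regulators were lower at week 3. The list holds transcription factors and cofactors known to act at primary granule genes or in granulocytic commitment. Of 20 tested, 3 rose and 6 fell against naive, with a median log2 fold change of -0.14. Over all tested genes 12.0% were called higher and 9.42% lower, so the number that rose was near the general share. Myb was at 46.9 and 43.6 CPM in naive mice, 47.8 and 47.8 CPM at week 1 and 20.7 and 23.4 CPM at week 3 (-1.04, adjusted p = 0.000126). Cebpe, which drives the step to secondary granules, fell by 0.99 (adjusted p = 8.52e-05), Gfi1, a repressor needed for neutrophil formation, fell by 0.92 (adjusted p = 0.00151) and Cebpa, which commits progenitors to the myeloid line, fell by 1.00 (adjusted p = 0.00743). Cebpb, the C/EBP factor of emergency granulopoiesis, went from 373 and 277 CPM to 928 and 952 CPM (1.53, adjusted p = 3.57e-05) and Cux1 rose by 0.74 (adjusted p = 0.00104). Spi1, which encodes PU.1, and Runx1 were not called (0.22, adjusted p = 0.261 and -0.19, adjusted p = 0.397). Cebpa, Gfi1, Spi1 and Runx1 are named because their motifs were searched in the promoters, and the factors' part in the rise was not tested.

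**Figure D4:**
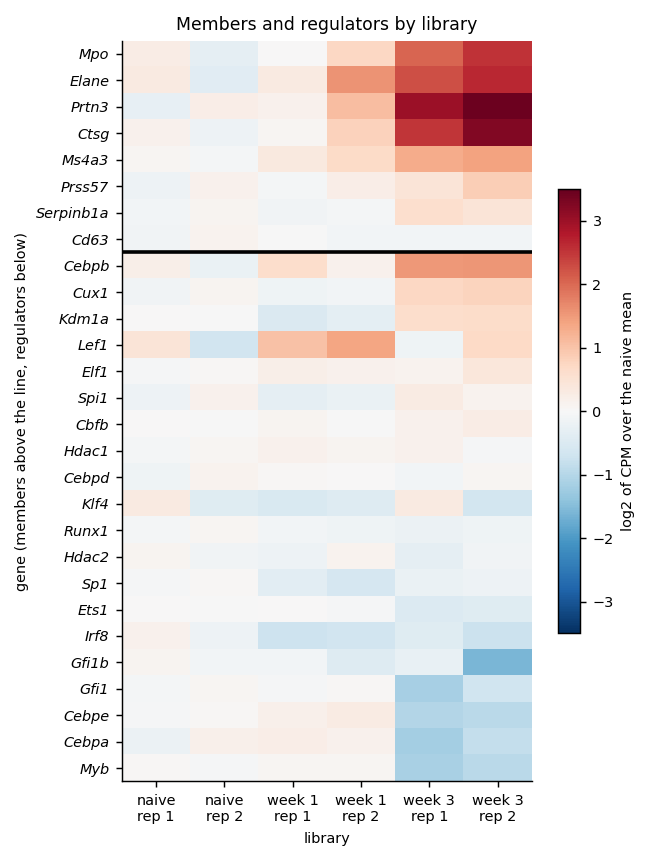
Log2 of the CPM in each library over the mean CPM of the naive libraries for the 8 primary granule genes (above the line) and the 20 regulators (below, sorted by the change at week 3). In both week 3 columns Mpo, Elane, Prtn3 and Ctsg are deep red while Myb, Cebpa, Cebpe and Gfi1 are blue.

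Genes of the early neutrophil stages, at which primary granules are made, were called lower more often than higher. Of 18 tested early precursor genes 2 rose and 7 fell at week 3 against naive, beside 12.0% higher and 9.42% lower over all tested genes, with a median of -0.20, and 4 fell without replicate 1 of week 3. Fcnb, a ficolin of immature neutrophils, fell by 1.12 (adjusted p = 9.14e-05) from 67.1 and 78.3 CPM to 30.5 and 36.3 CPM, and Plac8 rose by 0.85 (adjusted p = 0.000494). Kit, the stem cell factor receptor, was not called against naive (0.72, adjusted p = 0.0537), and Cd34 had a log2 fold change of 0.00 at about 1 CPM. Myb, Gfi1 and Cebpa, whose falls are given above, also belong to this list. Of 26 tested cell cycle genes 1 rose and 13 fell, with a median of -0.48 (8 fell without replicate 1 of week 3), among them Top2a (-1.33, adjusted p = 1.58e-05), Plk1 (-1.05, adjusted p = 0.00013) and Cdk1 (-0.94, adjusted p = 0.000223). Stmn1 fell by 0.81 (adjusted p = 0.000477), and the gene that rose was Hmgb2 (0.66, adjusted p = 0.000784), named here as the exception.

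The genes of the next granule type were lower or mixed. Of 17 tested secondary granule genes 3 rose and 6 fell at week 3 against naive, with a median of -0.05. Over all tested genes the shares were 12.0% higher and 9.42% lower. Camp, the cathelicidin, went from 17013 and 19915 CPM to 8093 and 9924 CPM (-1.04, adjusted p = 0.000173) and Chil3 fell by 0.79 (adjusted p = 0.000454). Orm1 fell by 1.54 (adjusted p = 6.89e-05) and Pglyrp1, a peptidoglycan recognition protein, rose by 1.04 (adjusted p = 0.000265). The summed level of the list was between 49737 and 56881 CPM in naive mice, 53958 and 54619 CPM at week 1 and 35539 and 39374 CPM at week 3. The plot of the lists places these values beside those of the primary granule genes.

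**Figure D5:**
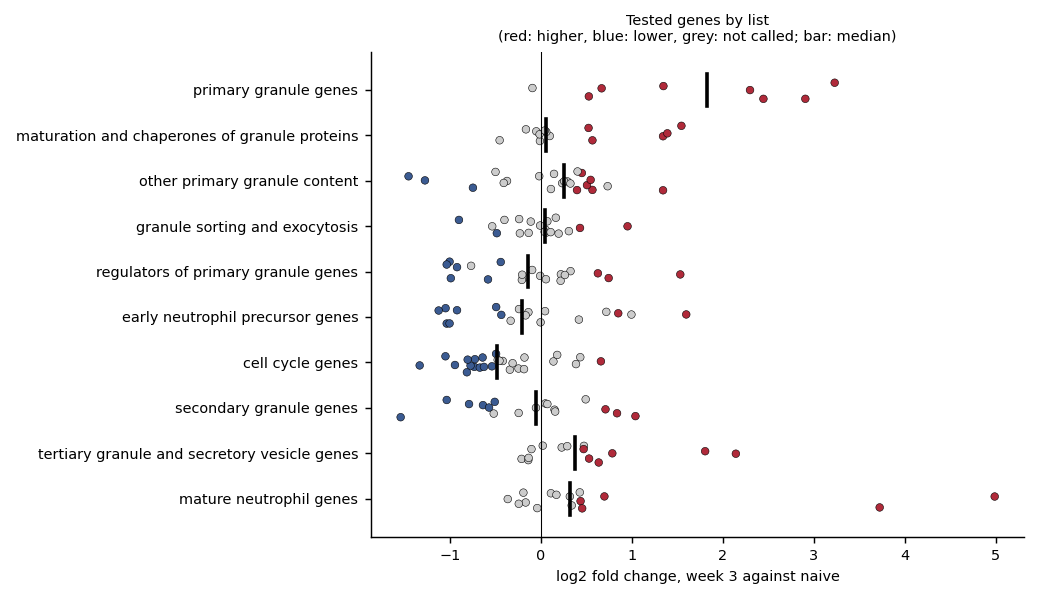
Log2 fold change at week 3 against naive of every tested gene of 10 lists (red called higher, blue called lower, grey not called, black bar the median). The primary granule genes have a median of 1.82, the cell cycle genes of -0.48 and the regulators of -0.14.

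Markers of other cell types moved as well. Against naive, 4.23% of all tested genes were called higher and 3.76% lower at week 1. At week 3 these shares were 12.0% and 9.42%. All 12 tested B-lineage genes fell at week 3 against naive in edgeR, with a median log2 fold change of -2.32. DESeq2 on all libraries tested 10 of them and called 8 lower. At week 1 the summed level of the 12 was 77.9 and 63.8 CPM. Of 11 tested markers of basophils, mast cells and eosinophils 4 rose at week 1 and 6 fell at week 3, and their summed level was 146 to 148 CPM in naive mice, 184 to 195 CPM at week 1 and 73.1 to 95.3 CPM at week 3. Of these markers 3 fell at week 3 in DESeq2 on the 2 groups alone and without replicate 1 of the naive group, and 2 without replicate 2 of the naive group. At week 1, 2 rose in DESeq2 on all libraries and without replicate 2 of the naive group, 1 when either week 1 library was left out and 0 without replicate 1 of the naive group. Of 16 tested markers of monocytes and dendritic cells 2 rose (F13a1 by 2.39, from 2.69 and 1.8 CPM to 15.5 and 8.14 CPM, and Ctss by 0.66) and 5 fell at week 3, led by H2-Aa (-1.83). Their summed level was 956 to 1132 CPM in naive mice, 1077 to 1138 CPM at week 1 and 1043 to 1049 CPM at week 3. Csf1r and Ly6c2 were not called (0.34, adjusted p = 0.0726 and 0.03, adjusted p = 0.894). Of 13 erythroid markers 2 fell (7 without replicate 1 of week 3, 0 without replicate 2 of week 3 or replicate 1 of the naive group, 5 without the count filter), with a summed level of 1245 to 1400 CPM in naive mice, 1359 to 1555 CPM at week 1 and 604 to 1391 CPM at week 3, and of 5 tested T and NK markers 1 fell, with a summed level of 16.4 to 19.9, 18.7 to 32.4 and 7.21 to 7.68 CPM. Tpsb2 and Trac had no count in any library. The part of these cells in the rise of the primary granule genes was not tested.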

How the data were processed

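RNA was sequenced as single-end reads from a total RNA kit. Per the labels the authors aligned reads to mm10 with Bowtie2 and estimated expected counts per gene with RSEM (version 1.2.31 in the labels, another in the methods). The deposited table holds these expected counts as whole numbers for 38887 gene identifiers and 6 libraries, of which 37570 matched GENCODE M21, used here for positions and exonic lengths (all exons of a gene merged). Counts were tested with edgeR 4.0.16 in R 4.3.3 (TMM scaling, filterByExpr, quasi-likelihood F test, 1 model over all 6 libraries, Benjamini-Hochberg adjustment over 12259 genes, called at adjusted p under 0.05). SE is the absolute log2 fold change over the root of F. DESeq2 1.42.0 was an alternative. The fit was tested on simulated counts. The 8 genes and the gene lists were chosen with earlier results of these data known. From every other list, up to 4 genes with the smallest adjusted p per comparison were named, besides cell type markers, genes named for a searched motif and genes said to have been picked as exceptions. Replicates of a group differed by more than counting noise (chi-square per degree of freedom 8.84 to 11.8). Read strand, pooling of mice and injection of controls are not given in the sources used here.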

Additional observations from a re-analysis of the deposited data

How the results depend on the processing

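The 8 genes were refitted in 3 comparisons under 14 alternatives: of the resulting values 313 kept their direction and their side of the threshold, 11 lost the call, 5 gained one and 7 changed sign, all 7 among values that were not called. At week 3 against naive Mpo, Elane, Prtn3, Ctsg and Ms4a3 were called under all 14, with a highest adjusted p of 0.0144 (Elane), and 5 to 7 of the 8 genes were called higher when 1 library was left out. At week 3 against week 1 that range was 4 to 7, the lowest without replicate 1 of week 1. At week 1 against naive it was 0 to 2, and 2 genes were called without the count filter (Elane, adjusted p = 0.00897, and Prtn3, adjusted p = 0.00132). Where a library was left out, the lone library of its group was assumed to vary like the other groups. The replicate number as a block gave 1 call at week 1 (Prtn3, 0.65, adjusted p = 0.03) and changed no other call of the 8 genes. Over all tested genes the differences between replicate 1 and replicate 2 were nearly uncorrelated between groups (correlations 0.01, 0.04 and 0.04). Such correlations over all genes cannot tell whether same-numbered libraries shared a handling step, which was not tested. Of the sign changes, that of Mpo was from 0.40. At week 1 against naive, leaving out each library gave -0.0004 to 0.7159 for Mpo, -0.064 to 0.2525 for Prss57 (-0.0605 without replicate 1 of the naive group), -0.1946 to 0.0087 for Serpinb1a and -0.1666 to 0.0756 for Cd63, and scaling by library size only gave 0.0101 for Cd63. At week 3 against naive the range was -0.2407 to 0.0399 for Cd63. The cause was not tested. Over all genes, 979 were called at week 1 against naive, 1537 without the count filter, 274 at an adjusted p under 0.01, 1685 under 0.1 and 147 to 1145 with 1 library left out. Of 2627 at week 3 against naive, 1339 were called under 0.01, 1666 by DESeq2 on the 2 groups alone and 1362 to 2392 with 1 library left out. Of 2760 at week 3 against week 1, 1483 were called under 0.01 and 1502 to 2725 with 1 library left out. The depth limits Elane and Ctsg most, with 20 to 34 counts in the naive libraries.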

Other observations

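Some genes of later granule types and of mature neutrophils were also higher at week 3. Against naive, 12.0% of all tested genes were called higher and 9.42% lower. Of 14 tested genes of tertiary granules and secretory vesicles 6 rose and none fell against naive, with a median log2 fold change of 0.38, and 2 rose without replicate 1 of the naive group. Cd14, the lipopolysaccharide co-receptor, went from 24.7 and 25.4 CPM to 111 and 111 CPM (2.14, adjusted p = 1.25e-06), Qsox1, a sulfhydryl oxidase, rose by 1.80 (adjusted p = 6.33e-05), Slc11a1, a metal transporter of phagosomes, by 0.78 (adjusted p = 0.00359) and Fpr2, a formyl peptide receptor, by 0.53 (adjusted p = 0.00488). Of 15 tested mature neutrophil genes 5 rose and none fell (3 rose without replicate 1 of the naive group, and 2 fell with library-size scaling or without replicate 2 of week 3), led by Wfdc17 (4.99, adjusted p = 1.4e-06) and Ifitm1 (3.72, adjusted p = 1.65e-06), and Cxcr2, the chemokine receptor of mature neutrophils, rose by 0.70 (adjusted p = 0.00288).

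The tested protease relatives outside the 8 genes were lower at week 3 against naive. Of the 6 tested genes of the serine protease and peroxidase family list, Elane, Prtn3, Ctsg and Prss57 belong to the 8 genes themselves. Their rise is the one given above. The other tested genes, the basophil proteases Mcpt8 (-1.26, adjusted p = 0.032) and Prss34, fell. Prss34 went from 15.2 and 14.3 CPM in naive mice to 39.8 and 44.4 CPM at week 1 (1.51, adjusted p = 0.00286) and 2.09 and 5.61 CPM at week 3 (-1.93, adjusted p = 0.000413). The granzyme genes Gzma, Gzmb, Gzmk and Gzmm had at most 8 counts in a library and were not tested.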
